A study of Mus musculus with 435 samples.

Results

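The genes described here are the mouse ATP-binding cassette (ABC) transporters and the ion and lipid pumps named Atp1, Atp2, Atp6, Atp7, Atp8 and Atp9. They were taken by symbol from the gene table that came with the arrays, with Atp2a1 left out, and a gene was kept if 1 of its probes had been measured on at least 100 arrays. This gave 72 of the 11633 genes that passed the same minimum, and 10 further genes of these names fell below it. The 72 genes comprise 34 ABC genes (9 ABCA, 7 ABCB, 5 ABCC, 3 ABCD, 1 ABCE, 3 ABCF and 6 ABCG). There are also 4 Na,K-ATPase beta family genes, 4 calcium pumps, 18 subunits of the vacuolar proton pump (V-ATPase), 1 copper pump and 8 flippases. Names beginning with Atp1 also take in Atp10, Atp11 and Atp13, so 2 P5 ATPases are included, and Atp23, a mitochondrial assembly factor that pumps nothing, entered through its first letters. The 10 genes below the minimum include Abcb1a, Abcc5 and the liver copper exporter Atp7b, whose values are not analysed here.

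Liver RNA of 2 inbred mouse strains, A/J and C57, was measured on 435 two-colour arrays at week 0, week 1 and weeks 3 to 11, with the mice on high-fat or low-fat food. The groups are C57 high-fat, C57 low-fat, A/J high-fat and A/J low-fat, and each of them at 1 week is a group of its own. Each array compared liver RNA, in Cy5, with 1 reference pool of 10 tissues of C57 mice, in Cy3, which holds 26% liver and 26% kidney. The labels do not say which arrays share a mouse, so the p-values measure the spread between these arrays or their weekly means, which may be partly technical.

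ABC transporters use ATP to move lipids, bile acids, drugs and peptides across membranes. In hepatocytes, Abcb11 exports bile acids into the bile canaliculus, Abcb4 delivers phosphatidylcholine, Abcg5 and Abcg8 form a pair that secretes sterols, and Abcc2 exports conjugates. The P-type pumps carry sodium and potassium, calcium, copper or, for the flippases, phospholipids from the outer to the inner leaflet. The V-ATPase acidifies lysosomes and endosomes. Its V1 sector hydrolyses ATP in the cytosol and its V0 sector conducts protons through the membrane. ABCE and ABCF proteins act on ribosomes and move no substrate across a membrane.

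The sterol pair Abcg5 and Abcg8 is shown first because both genes start from 1 short stretch of DNA and their values can be read side by side. They are neighbours on chromosome 17 and point away from each other, and the bases between their RefSeq starts in assembly GRCm38.p6 are printed. The stretch, chr17:84683012-84683120, is given on the plus strand, with Abcg5 to its left and Abcg8 to its right.
Abcg5 and Abcg8, between the starts: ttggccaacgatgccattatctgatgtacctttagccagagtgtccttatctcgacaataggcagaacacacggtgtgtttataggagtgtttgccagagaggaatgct
Over the 35 groups in which both genes were measured, the group means of Abcg5 and Abcg8 had a Pearson correlation of 0.12 and a Spearman correlation of 0.13. Without the 2 groups farthest from the median of Abcg5 the Pearson correlation was 0.24. The group means share their arrays and weeks, and with each week's mean subtracted the Pearson correlation was 0.30.

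The V-ATPase subunits are shown by a motif, since their promoters can be compared and their slopes against week went in both directions. The motif CACGTG, an E-box, reads the same on both strands and is the core of the element bound by Tfeb, a transcription factor of lysosomal genes. Promoter windows of 250 bases before and 50 bases after the start were found in RefSeq for 55 of the 72 genes. CACGTG stood in 10 of those 55 (18.2%), in 4 of the 14 V-ATPase windows (28.6%) and in 8.09% of the windows of 27025 mouse genes. A match is a string of letters and no evidence of binding. The 5 stretches in the 4 V-ATPase genes follow, each read on the strand of its gene, with the motif in capitals.
Atp6v0b, chr4:117887348-117887377, minus strand: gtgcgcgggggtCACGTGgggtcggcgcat
Atp6v0b, chr4:117887330-117887359, minus strand: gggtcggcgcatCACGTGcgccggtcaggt
Atp6v0d1, chr8:105566050-105566079, minus strand: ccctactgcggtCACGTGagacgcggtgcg
Atp6v0e, chr17:26676387-26676416, plus strand: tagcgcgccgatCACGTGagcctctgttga
Atp6v1a, chr16:44139373-44139402, minus strand: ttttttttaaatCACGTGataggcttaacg
The other 6 genes with the motif were Abca1, Abca8b, Abcf1, Atp1b3, Atp2b1 and Atp7a. Among the 4 V-ATPase genes, Atp6v0e and Atp6v1a had positive slopes against week, Atp6v0b had a negative one and Atp6v0d1 passed no test, as given with the values by week.

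Values are log2 ratios of liver over the reference, with each array's median over the probes tested set to 0. A ratio compares a gene with itself in the reference, so the order of ratios is not an order of abundance. A transcript found in no reference tissue but liver would read 1.94 before centring, because liver is 26% of the pool. Arrays gave a median of 11357.5 measured probes (range 2183 to 14920). At week 8, 28 of 40 arrays correlated with the median array below 0.15, as did 4 arrays of other weeks. Week 8 and those 4 arrays were left out, 2 arrays identical to another were dropped, and the 39 arrays of week 0 entered only the tests within single weeks. This left 350 arrays in 36 groups of 8 to 10 over 9 weeks, from week 1 to week 11. Of the 72 genes, 36 were measured widely enough to be tested, on at least 70% of these arrays and 3 arrays of every group, among 7643 probes. Markers of hepatocytes were above 0 for 8 of 9 measured genes (median 1.11), and all 4 measured kidney markers were below 0 (median -1.16). Of 5 bile duct markers, 1 was above 0 (range -0.06 to 0.28), and of 3 macrophage markers 2 were (range -0.73 to 0.76). Both cell types are also present in reference tissues. Some markers of other reference tissues were above 0 in liver. They included 2 of 3 testis markers (Tnp1 at 0.96 and Prm2 at 0.67). Pvalb (1.09) was the 1 of 6 muscle markers above 0, and Scgb1a1 (0.55) the 1 of 2 lung markers. The other muscle markers ran down to -2.75 (Acta1), and the lung marker Sftpc stood at -2.57. A ratio above 0 was thus also read for some genes that mark other tissues.

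The transporter and pump genes stood above and below the mixed reference about as often as other genes measured as widely. Of the 72 genes 23 had a mean above 0 (31.9%) and 49 below it, with a median of -0.22, against 31% above 0 and a median of -0.27 over the 14144 probes with the same minimum of 100 arrays. Among the 36 tested genes 16 were above 0 (44.4%), with a median of -0.05, against 40.4% and -0.10 over the 7643 probes tested. Among the 36 genes not tested 7 were above 0 (19.4%), with a median of -0.43, against 19.8% and -0.51 over the 6501 probes not tested. These counts describe the ratio only. In bulk liver, fewer cells of a type and less RNA per cell cannot be told apart.

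**Figure D1:**
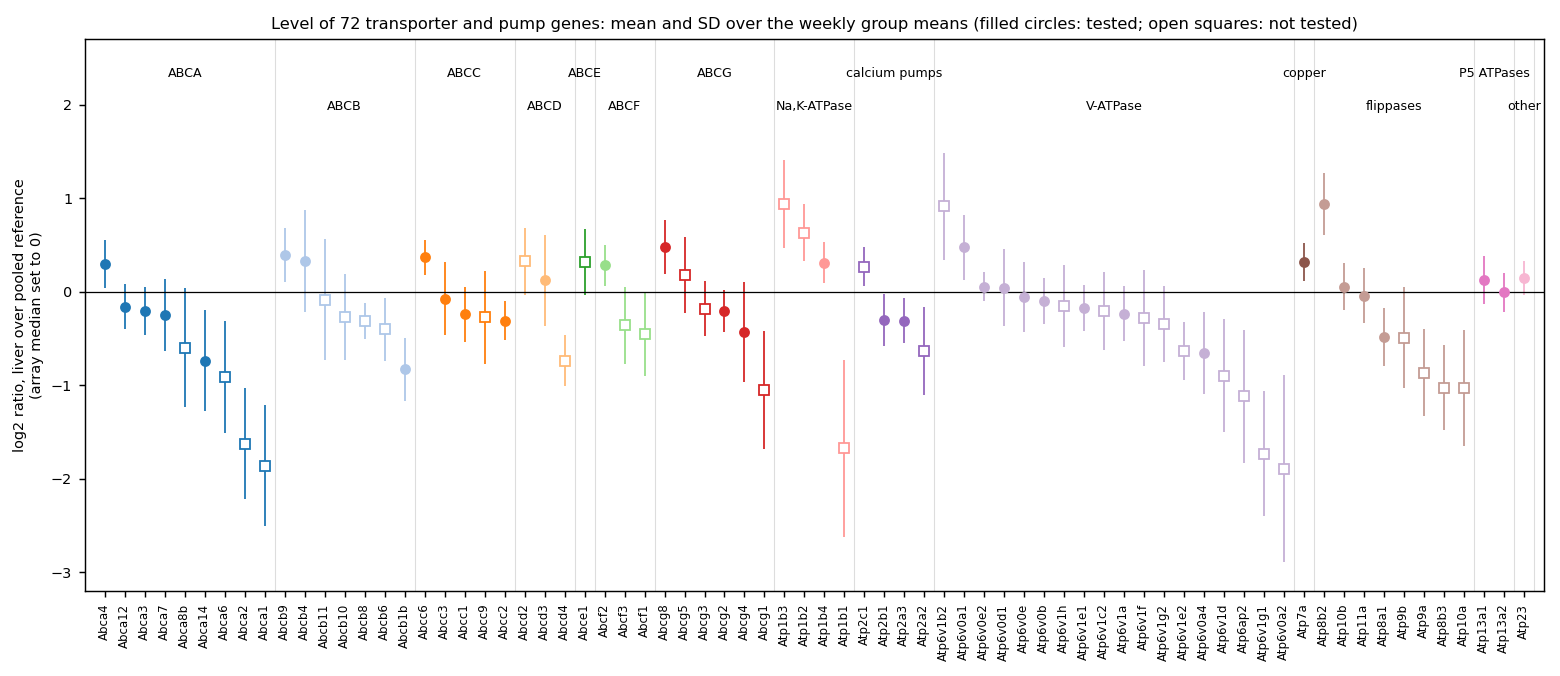
The vertical axis is the log2 ratio of liver over the pooled reference, and each gene is shown as its mean with the SD over its weekly group means (filled circles, tested genes; open squares, genes not tested). The ABCA and V-ATPase families run down to about -1.9, and the highest means belong to Atp8b2 and Atp1b3 (0.94 each).

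Among the ABCA genes, 8 of 9 were below 0. The lowest was Abca1, which passes cholesterol to apolipoprotein A-I, with a mean of -1.86 ± 0.64 (SD over 35 group means) and a highest group mean of -0.86. The lysosomal lipid transporter Abca2 followed at -1.63 ± 0.59 (SD, n = 33 group means), a difference smaller than either spread. Abca4, known from the retina, was the highest at 0.30 ± 0.26 (SD, n = 36) and was above 0 in 33 of 36 groups.

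In the ABCB family 2 of 7 genes were above 0. These were Abcb9, a lysosomal peptide transporter, at 0.40 ± 0.29 and Abcb4 at 0.33 ± 0.54 (SD, n = 36 for each). The lowest was Abcb1b, a drug-exporting P-glycoprotein, at -0.83 ± 0.34, with every one of its 36 group means below 0. The mitochondrial members Abcb6, Abcb8 and Abcb10 lay between -0.40 and -0.27. Among the ABCC genes the highest was Abcc6, the transporter lost in pseudoxanthoma elasticum, at 0.37 ± 0.19, above 0 in 35 of 36 groups. Abcc2 was the lowest of the 5 ABCC genes, at -0.31 ± 0.21.

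Of the 3 ABCD genes the peroxisomal Abcd2 stood highest at 0.33 ± 0.36 (SD, n = 21) and Abcd4, which serves lysosomal cobalamin export, lowest at -0.74 ± 0.27 (SD, n = 33). The ribosome recycling factor Abce1 had a mean of 0.32 ± 0.35 (SD, n = 22). Abcf2 (0.28 ± 0.22) was the highest of the ABCF genes and Abcf1 (-0.46 ± 0.45) the lowest. In the ABCG family Abcg8 was the highest at 0.48 ± 0.29, above 0 in 35 of 36 groups. The cholesterol exporter Abcg1 was the lowest at -1.05 ± 0.63 (SD, n = 32).

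The genes of the Na,K-ATPase beta family spread widely. Atp1b3 had a mean of 0.94 ± 0.47 and was above 0 in all 31 of its measured groups, while Atp1b1 had a mean of -1.68 ± 0.95 over 26 groups. Among the calcium pumps, Atp2c1 of the Golgi was the highest at 0.27 ± 0.21, and Atp2a2, the pump of the endoplasmic reticulum found in most cells, was the lowest at -0.63 ± 0.47. The copper pump Atp7a had a mean of 0.32 ± 0.20. Among the flippases Atp8b2 was the highest at 0.94 ± 0.33, with all 36 group means between 0.39 and 1.62, and Atp10a and Atp8b3 were the lowest, both at -1.03. Of the 2 P5 ATPases, Atp13a1 of the endoplasmic reticulum had a mean of 0.13 ± 0.26 and the lysosomal Atp13a2 a mean of -0.01 ± 0.21.

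For the V-ATPase, 4 of 18 subunits were above 0. In the V1 sector 1 of 10 was, Atp6v1b2 at 0.91 ± 0.58 over 17 groups, and the median of the sector was -0.26. In the V0 sector 3 of 7 were, the highest being Atp6v0a1 at 0.48 ± 0.35 (SD, n = 36), and the median was -0.05. The lowest subunit was Atp6v0a2 at -1.89 ± 1.00 (SD, n = 26), with the V1 subunit Atp6v1g1 at -1.73 ± 0.67 (SD, n = 32). The accessory subunit Atp6ap2 had a mean of -1.12 ± 0.71 (SD, n = 33). Some of the 18 genes encode alternative forms of 1 subunit, and these forms differed too, Atp6v0a2 at -1.89, Atp6v0a4 at -0.65 and Atp6v0a1 at 0.48. For 3 genes a second probe passed the minimum of 100 arrays. Both probes of Abca3 read alike (-0.21 and -0.16), those of Abca14 differed in size (-0.74 and -1.61), and those of Atp23 differed in sign (0.15 and -0.63).

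The transporters of the bile canaliculus were compared between the 4 strain and diet groups by their weekly means. No canalicular gene passed the threshold in a diet or strain comparison. The value of each group is given first, as the lowest, the median and the highest of its weekly means.

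Abcg5 ran from 0.03 through 0.42 to 1.49 in C57 high-fat livers, with a mean of 0.47 ± 0.47 (SD, n = 9 weeks). In C57 low-fat livers it ran from -0.33 through 0.03 to 0.46, with a mean of 0.02 ± 0.33 (SD, n = 9 weeks). The ranges overlap, and within each of the 9 weeks the high-fat mean was the higher, by 0.07 to 1.18. In A/J livers the means were 0.20 ± 0.27 on high-fat and 0.01 ± 0.42 on low-fat food, and the high-fat mean was the higher in 5 of 8 weeks. Abcg5 was measured on too few arrays for the main test. Under a looser filter (2 arrays of a group, in at least 5 weeks), its diet difference in C57 was 0.45 (95% interval 0.15 to 0.75, unadjusted p = 0.0052, adjusted p = 0.60, limma) and in A/J 0.25 (-0.05 to 0.56, adjusted p = 0.96). The difference between the strains in that value was 0.20 (-0.23 to 0.63, adjusted p = 1.00, limma).

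Its partner Abcg8 ran from 0.15 through 0.40 to 1.04 in C57 high-fat livers and from -0.07 through 0.44 to 0.76 in C57 low-fat livers. In A/J it ran from 0.10 through 0.71 to 1.01 on high-fat and from 0.06 through 0.34 to 1.10 on low-fat food. All 4 groups overlap. The diet difference was 0.14 in C57 (-0.06 to 0.34, higher in 6 of 9 weeks) and 0.15 in A/J (-0.05 to 0.34, higher in 7 of 9 weeks).

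The bile salt exporter Abcb11 was measured on 185 of the 350 arrays. Its weekly means ran from -0.84 through 0.08 to 1.34 in C57 high-fat livers and from -1.06 through 0.10 to 0.81 in C57 low-fat livers. In A/J livers they ran from -1.45 through -0.06 to 0.28 on high-fat and from -1.62 through -0.28 to 0.24 on low-fat food. The C57 mean was the higher in all 8 low-fat weeks and all 7 high-fat weeks with 3 arrays or more in both strains, by amounts from under 0.01 to 1.72. Under the looser filter the strain difference was 0.46 on the low-fat diet (0.05 to 0.87, unadjusted p = 0.028, adjusted p = 0.44, limma) and 0.33 on the high-fat diet (-0.08 to 0.74, adjusted p = 0.56, limma).

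**Figure D2:**
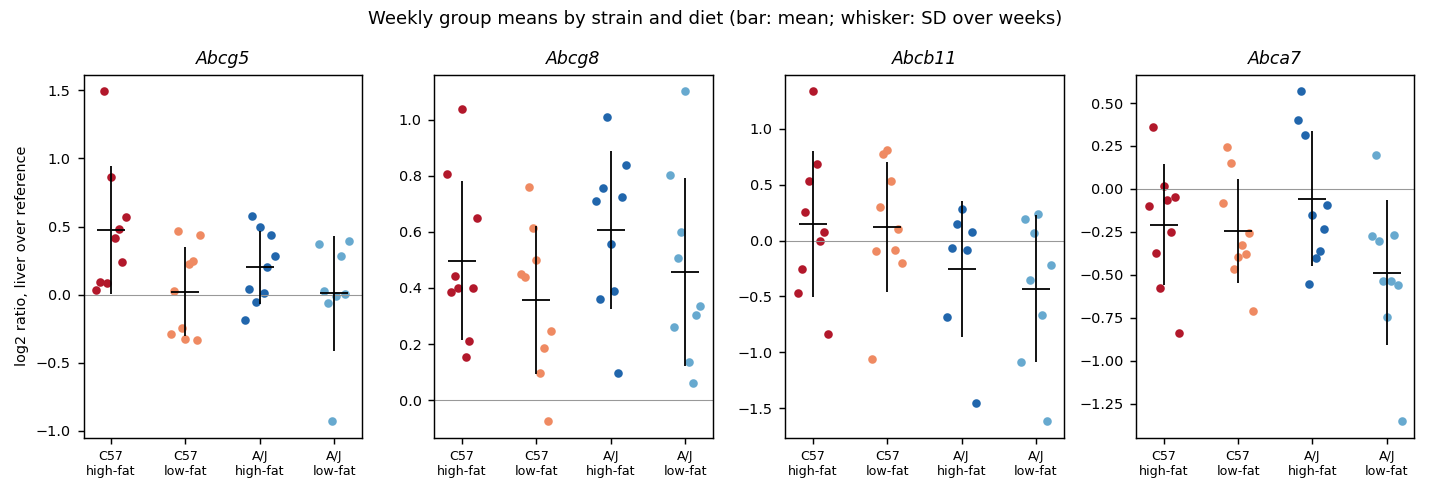
Each point is the mean log2 ratio of 1 week in 1 strain and diet group (3 arrays or more), the bar is the mean of the weeks and the whisker their SD. Abcg5 has its highest mean in C57 high-fat livers (0.47), and Abca7 is lowest in A/J low-fat livers (-0.49). Abcb11 lies lower in both A/J groups (-0.25 and -0.43) than in both C57 groups (0.15 and 0.12). Its means rest on 9 weeks in each C57 group, 7 in A/J high-fat and 8 in A/J low-fat livers.

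The phosphatidylcholine transporter Abcb4 had means of 0.38 ± 0.67 in C57 high-fat, 0.26 ± 0.42 in C57 low-fat, 0.50 ± 0.70 in A/J high-fat and 0.19 ± 0.35 in A/J low-fat livers (SD, n = 9 weeks each). Its diet difference in A/J was 0.31 (0.005 to 0.61, adjusted p = 0.90, limma). Without week 10 it was 0.13, and the A/J high-fat mean of that week was 2.08, against -0.28 to 0.80 in the other weeks. The conjugate exporter Abcc2 had group means between -0.35 and -0.24, and the drug exporter Abcg2 between -0.27 and -0.09. Abcb1b had means of -0.85, -0.83, -0.84 and -0.80 in the groups in the order given for Abcb4. The diet differences of Abcc2, Abcg2 and Abcb1b in either strain lay between -0.04 and 0.14.

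The first question of the design is how the diets differ in each strain. None of the 36 tested genes passed the adjusted threshold of 0.05 in either strain with limma. In C57, 15 of 7643 probes passed (0.196%), and 1 of the 36 genes had an unadjusted p under 0.05. In A/J, 2 probes passed (0.0262%), and 4 of the 36 genes had an unadjusted p under 0.05. The median diet difference of the 36 genes was 0.00 in C57 and 0.02 in A/J, against 0.00 and -0.01 over all probes. All 95% intervals of the 36 genes lay within -0.41 and 0.43 in C57 and within -0.50 and 0.64 in A/J. Under the looser filter, which tests 70 of the 72 genes, none was called in C57 or A/J either. It called 0.116% and 0.0% of 13831 probes, and 3 and 4 of the 70 had an unadjusted p under 0.05. The unadjusted counts are given without the share of all probes at that cutoff and are not read as an excess.

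In C57 the smallest p belonged to Atp8b2, a flippase of the plasma membrane. Its weekly means ran from 0.39 through 0.79 to 1.06 on high-fat and from 0.48 through 0.87 to 1.57 on low-fat food. The ranges overlap, and the difference was -0.22 (-0.41 to -0.03, adjusted p = 0.70, limma), below 0 in 7 of 9 weeks. In A/J the difference of Atp8b2 was -0.19 (-0.39 to -0.002), below 0 in 6 of 9 weeks. Abcc6 differed by 0.13 (-0.005 to 0.27) and the drug and glutathione conjugate exporter Abcc1 by -0.20 (-0.41 to 0.01) in C57, both at an adjusted p of 0.81 with limma.

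In A/J the smallest p belonged to Abca7, a phospholipid transporter related to Abca1 and known for its part in phagocytosis. Its weekly means in A/J ran from -0.55 through -0.15 to 0.57 on high-fat and from -1.35 through -0.53 to 0.19 on low-fat food. The ranges overlap, and the high-fat mean was the higher in 7 of 9 weeks, by up to 1.26 at week 11. The difference was 0.43 (0.22 to 0.64, unadjusted p = 0.00026, adjusted p = 0.28, limma), a ratio of 1.35-fold. Fitted to single arrays in place of weekly means, the difference was 0.41 and passed the threshold (adjusted p = 0.025, limma). Abca7 was the 1 gene of the 36 to pass in that fit, with 0.144% of probes called. That fit counts each array of a group and week as independent, which the labels do not show, so its p may be too small. The fit on weekly means, which Abca7 did not pass, is the main test. On single arrays with the replicate number as a block in place of week, the adjusted p of Abca7 was 0.0018 (limma, 0.916% of probes called). The numbers run on across weeks and do not pair the arrays, so this fit is no separate support. In C57 the difference was 0.04 (-0.17 to 0.25), above 0 in 5 of 9 weeks.

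The flippase Atp8a1 had a difference of -0.26 in A/J (-0.50 to -0.01, adjusted p = 0.90, limma), below 0 in 8 of 9 weeks, with a mean of -0.69 ± 0.26 on high-fat and -0.44 ± 0.28 on low-fat food (SD, n = 9 weeks). In C57 it was 0.08 with an interval that holds 0.

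Whether diet acted differently in the strains was tested by the difference between the 2 diet differences, C57 minus A/J. No gene of the 36 passed, nor did any of the 7643 probes (0.0%), and 1 of the 36 had an unadjusted p under 0.05 against 204 of all probes (limma). That gene was Abca7, at -0.39 (-0.69 to -0.09, unadjusted p = 0.012, adjusted p = 1.00). Atp8a1 was at 0.33 (-0.01 to 0.68) and Atp7a at -0.12 (-0.33 to 0.09). Under the looser filter no gene and 0.0% of probes passed.

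**Figure D3:**
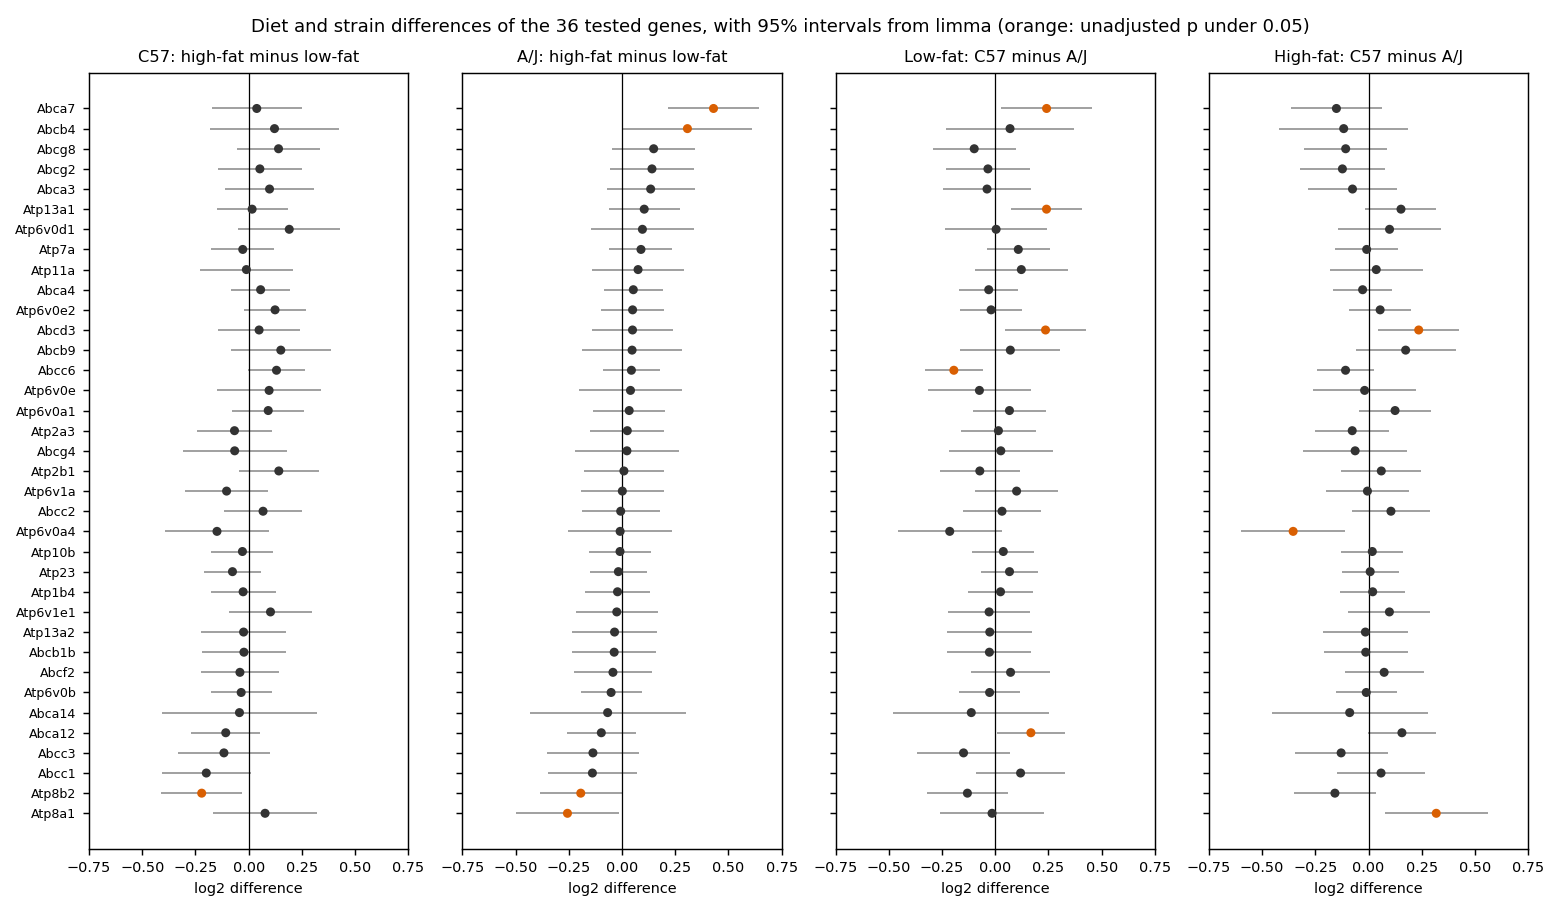
Each panel gives the log2 difference of 1 comparison for the 36 tested genes with its 95% interval from limma, in the same gene order, and genes with an unadjusted p under 0.05 are orange. The points scatter around 0 in all 4 panels, with Abca7 farthest above 0 in A/J (0.43) and Atp6v0a4 farthest below 0 between the strains on the high-fat diet (-0.35).

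The strains were compared on each diet. On the low-fat diet 183 probes passed (2.39%) and none of the 36 genes did, 5 of them having an unadjusted p under 0.05 (limma). On the high-fat diet 301 probes passed (3.94%) and again none of the 36 genes, 3 having an unadjusted p under 0.05. Under the looser filter the strain comparisons called 1.05% and 1.91% of probes and none of the 70 genes, with 6 and 4 at an unadjusted p under 0.05. As for diet, the unadjusted counts lack the share of all probes and are not read as an excess. Of 9 hepatocyte markers 1 was called on the low-fat diet, lower in C57, and 4 on the high-fat diet, 2 in each direction, and their part in the strain values was not tested.

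Abcd3, a peroxisomal importer of branched-chain fatty acids and bile acid precursors, differed by 0.24 on the low-fat diet (0.05 to 0.43, adjusted p = 0.27, limma) and by 0.24 on the high-fat diet (0.04 to 0.43, adjusted p = 0.20). C57 was the higher strain in 7 and 8 of 9 weeks. Its group means ran from -0.02 in A/J low-fat to 0.26 in C57 high-fat livers, with SDs over weeks of 0.45 to 0.55. Built on group medians, both comparisons passed for Abcd3 with limma (0.32, adjusted p = 0.028, and 0.30, adjusted p = 0.031), where 2.0% and 3.43% of probes were called. Week 4 was the low-fat week farthest in the other direction (-0.67). Without it the low-fat comparison passed (0.35, adjusted p = 0.012, limma, 2.19% of probes called). In the other 8 of the 9 fits with 1 week left out it did not pass, with adjusted p up to 0.48 (limma).

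On the low-fat diet Atp13a1 was higher in C57 in 8 of 9 weeks, by 0.24 (0.07 to 0.41, adjusted p = 0.15, limma). Abcc6 was lower in C57 in 7 of 9 weeks, at -0.19 (-0.33 to -0.06, adjusted p = 0.15, limma). It passed only on single arrays with the replicate number as a block in place of week (adjusted p = 0.035, limma, 6.71% of probes called). The numbers run on across weeks, so most blocks lie within 1 week, but they do not pair the arrays. That fit takes the array as its unit, so its p may be too small. On the high-fat diet Atp6v0a4, a proton channel subunit typical of kidney, was at -0.35 (-0.60 to -0.11, adjusted p = 0.10, limma), lower in C57 in 7 of 9 weeks. Week 5 was its week farthest in the other direction (0.34). Without that week Atp6v0a4 passed, at -0.44 (adjusted p = 0.038, limma, 3.07% of probes called). In the other 8 of the 9 fits with 1 week left out it did not, with adjusted p up to 0.28 (limma). Kidney markers were lower in C57 on both diets by a median of 0.14 over 3 tested genes, none of them called. Their part in the Atp6v0a4 difference was not tested. Atp8a1 was at 0.32 (0.07 to 0.56, adjusted p = 0.16, limma), higher in C57 in 7 of 9 weeks. It passed only on single arrays with the same block (0.27, adjusted p = 0.026, limma, 12.3% of probes called), with the same limits.

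Week accounted for more of the variation than strain and diet. For the 36 genes, week took a median of 60.6% of the variation among the 36 group means and the 4 strain and diet levels took 4.0%, against 60.0% and 4.7% over all probes. Of the degrees of freedom among the group means, week holds 22.9% and the levels 8.57%. The week's share ran from 30.9% in Atp13a2 to 82.7% in Abcg4. The level's share was highest in Abcc6, at 23.4%.

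A straight line against week, with 1 slope for all 4 levels, called 16 of the 36 genes (limma), 9 with positive and 7 with negative slopes. Over all probes 40% were called, 18.5% with positive and 21.5% with negative slopes, so the share among the 36 genes is near that of the arrays as a whole. The labels do not give the time of hybridisation, and the 4 levels of a week may have shared it, so week and batch cannot be told apart. With 1 mean per week, which leaves 9 points, 4.0% of probes were called and 1 of the 36 genes, Abcb4. Within each level alone none of the 36 genes was called.

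Abcb4 had the steepest positive slope, 0.117 per week (0.076 to 0.158, adjusted p = 2.7e-05, limma), or 1.17 from week 1 to week 11. Its mean over the 4 levels was -0.39 at week 1, -0.14 at week 3, -0.07 at week 4, 0.64 at week 5, 0.54 at week 6, 0.22 at week 7, 0.38 at week 9, 1.09 at week 10 and 0.71 at week 11. All weeks from 5 on were above all weeks before, and the slopes within the 4 levels ran from 0.053 to 0.165 per week. With 1 mean per week the adjusted p was 0.039. Abcb1b lies next to Abcb4 on chromosome 5 and had a negative slope of -0.065 (-0.095 to -0.035, adjusted p = 0.00073, limma). Its mean over the levels was -0.76 at week 1, -0.44 at week 3, -1.14 at week 10 and -1.46 at week 11, with the values of the other weeks between -0.90 and -0.64.

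**Figure D4:**
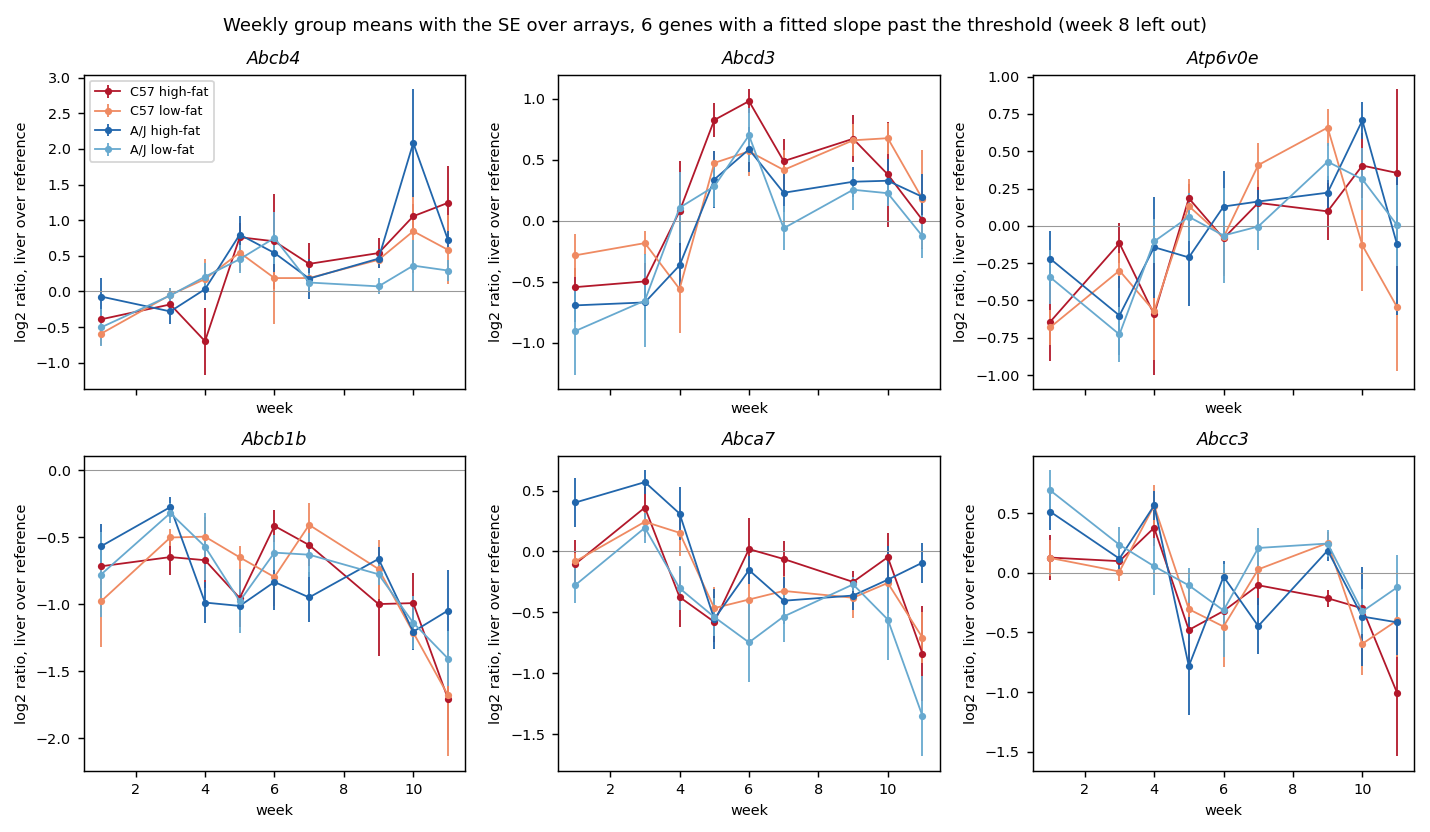
Each panel plots the weekly mean log2 ratio of 1 gene against week for the 4 strain and diet groups, with the SE over arrays. Abcb4, Abcd3 and Atp6v0e have positive slopes and Abcb1b, Abca7 and Abcc3 negative ones (Abcb4 from -0.39 at week 1 to 0.71 at week 11, Abcc3 from 0.37 to -0.49, as means of the groups). Abcd3 does not follow a straight line.

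Abcd3 had a slope of 0.087 per week (0.046 to 0.129, adjusted p = 0.0010, limma), and its mean over the levels went from -0.61 at week 1 to 0.71 at week 6 and 0.06 at week 11, which is no straight line. The sterol transporter Abcg4 had a slope of 0.079, from -1.36 at week 1 to 0.14 at week 5 and -0.60 at week 11. Abcb9 (0.047), Atp13a1 (0.044), Atp23 (0.029) and Abcc2 (0.028) completed the positive slopes outside the V-ATPase. Without week 1 the slopes of Abcd3 (0.060, adjusted p = 0.072), Abcg4 (0.027, adjusted p = 0.50) and Abcc2 (0.023, adjusted p = 0.21) no longer passed. Atp23 did not pass without week 11 (0.018, adjusted p = 0.21), nor did Abcc2 (0.019, adjusted p = 0.25, limma). Of the 9 fits with 1 week left out, Atp23 passed in 6 and Abcc2 in 5.

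The negative slopes outside the V-ATPase belonged to Abcb1b, Abca7, Abcc3, Abca14 and Abca12. Abca7 had a slope of -0.066 (-0.098 to -0.035, adjusted p = 0.0011, limma) and ran from 0.34 at week 3 to -0.75 at week 11. Abcc3, which exports conjugates back to the blood, had a slope of -0.068 (-0.102 to -0.034, adjusted p = 0.0015), from 0.37 at week 1 to -0.49 at week 11. Abca14 (-0.070) and Abca12 (-0.032), a lipid transporter of the epidermis, followed. Abca12 did not pass without week 1 (-0.023, adjusted p = 0.23), nor Abca14 without week 11 (-0.023, adjusted p = 0.52, limma). Each of the 2 passed in only 6 of the 9 fits with 1 week left out.

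Among the 8 tested V-ATPase subunits 4 had slopes past the threshold, 2 in each direction. The V0 subunit Atp6v0e had a slope of 0.073 (0.041 to 0.106, adjusted p = 0.00041, limma) and the catalytic V1 subunit Atp6v1a one of 0.057 (0.030 to 0.083, adjusted p = 0.00083). The V0 subunit Atp6v0b had a slope of -0.045 (-0.068 to -0.022, adjusted p = 0.0022) and the stalk subunit Atp6v1e1 one of -0.040 (adjusted p = 0.0074). Each direction thus holds 1 subunit of each sector. Atp6v0b no longer passed without week 1 (-0.035, adjusted p = 0.069), nor Atp6v1e1 without week 11 (-0.030, adjusted p = 0.092, limma). The slopes of Atp6v0e and Atp6v1a passed whichever of the 9 weeks was left out, as did those of Abcb4, Abcb1b, Abca7, Abcc3, Abcb9 and Atp13a1. These fits count the 4 levels of a week as separate points. With 1 mean per week only Abcb4 of these genes was called. The adjusted p of the others then ran from 0.078 (Atp6v0e) to 0.16 (Atp13a1, limma).

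**Figure D5:**
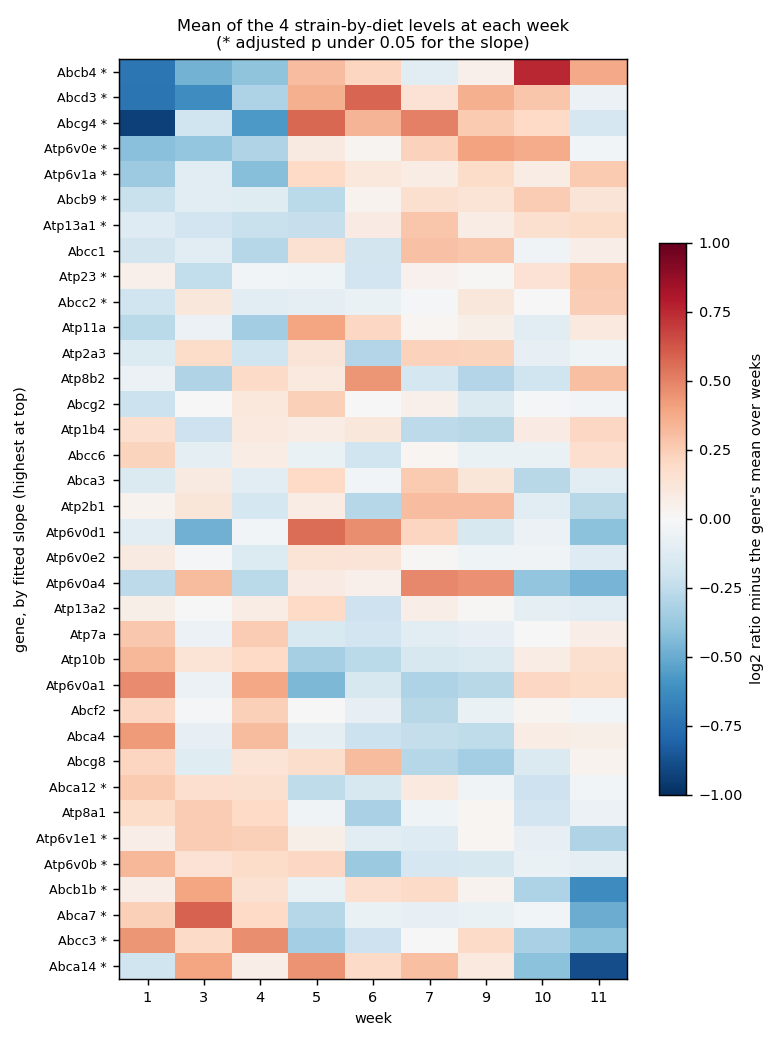
Colour gives the mean of the 4 strain and diet levels at a week minus the gene's mean over weeks, on the log2 scale, for the 36 tested genes in the order of their slopes (asterisk, adjusted p under 0.05). The top rows change from blue to red between weeks 4 and 5 (Abcb4 from -0.07 to 0.64 in log2 ratio), and the lowest rows have negative slopes.

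Other properties of the arrays also varied by week. The median SD of an array's log2 ratios ran from 0.54 at week 3 to 0.92 at week 11, and the median of the 9 hepatocyte markers from 0.62 at week 3 to 1.44 at week 6. Of the 9 hepatocyte markers 4 had positive and 3 had negative slopes past the threshold. The median of the kidney markers ran from -1.69 at week 4 to -0.78 at week 9. Their part in the slopes was not tested. With every array scaled to the same spread 19 of the 36 genes had slopes past the threshold, with 44.9% of probes called. Under the looser filter 28 of 70 genes did, 14 in each direction, with 33.1% of probes called. Among the 12 genes that only this filter tests and calls, Atp1b1 had the steepest slope (-0.179), followed by Atp10a (-0.116) and Atp9b (0.112).

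Other genes of the same pathways were counted by list. Of 9 tested bile acid genes, 3 had positive slopes past the threshold and none a negative one: the bile acid ligase Slc27a5 (0.061), the organic anion importer Slco1a4 (0.059) and the peroxisomal oxidase Acox2 (0.047). Of 6 tested sterol efflux genes, Lcat had a positive slope (0.063) and Apoe a negative one (-0.103). Of 11 lysosome genes, Ctsl (0.092) and Psap (0.031) had positive slopes and Lamp2 (-0.044) and Gaa (-0.047) negative ones. Of 5 pump partners, the copper-handling Commd1 had a positive slope (0.079) and the calmodulin gene Calm3 a negative one (-0.064). These shares are to be read against the 40% of all probes.

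No gene of the 4 lists passed in a diet or strain comparison with limma. In the bile acid list the widest diet difference was that of the bile acid importer Slc10a1 in A/J, at -0.31 (adjusted p = 0.68), and the widest strain difference that of the sterol hydroxylase Cyp8b1, at 0.51 on the low-fat diet (adjusted p = 0.13) and 0.44 on the high-fat diet (adjusted p = 0.16). Apoe differed by 0.38 between the diets in C57 (adjusted p = 0.47). The lysosomal membrane gene Lamp1 differed by 0.31 in C57 (adjusted p = 0.54) and by 0.27 in A/J (adjusted p = 0.85), and by 0.35 between the strains on the high-fat diet (adjusted p = 0.093). Among the pump partners Fxyd1, a regulator of the Na,K-ATPase, had the widest diet difference, -0.28 in A/J (adjusted p = 0.85, limma).

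Diet was also tested within each strain at week 0 and at each of the 9 weeks, in 20 tests on single arrays. In all, 115 of 240212 probe tests passed (0.0479%) and none of the 1229 tests of the 72 genes did (limma). All but 6 of the probe calls came from 1 test, A/J at week 4, where 0.885% of probes passed, against 0.00263% in the other 19 tests. In A/J at week 4, 18 of 63 genes (28.6%) and 19.8% of probes had an unadjusted p under 0.05, against 6.95% of genes and 6.85% of probes in the other tests. With the replicate number as a block, 1 probe (0.00847%) passed in A/J at week 4 and 0.00331% in the other tests, again with none of the 72 genes. The smallest adjusted p was that of Abca1 in A/J at week 4, a difference of -1.49 ± 0.46 (SE, 10 high-fat and 9 low-fat arrays, adjusted p = 0.093, limma), in the test that held most of the calls. With the block its adjusted p was 0.23 (limma). The numbers do not pair the arrays, so the fits with the block do not tell whether the calls hold. Abcg5 differed by 1.03 ± 0.27 (SE) in C57 at week 4 with 10 and 7 arrays (adjusted p = 0.59), and Abca7 by 1.26 ± 0.36 (SE) in A/J at week 11 with 9 arrays each (adjusted p = 0.50). At week 0, with a median of 5007 measured probes per array, 5 gene tests had an unadjusted p under 0.05, for Atp2a3, Abca4, Atp1b4 and Atp13a2 in A/J and Abcb1b in C57. The largest of these was 0.57 ± 0.25 (SE) for Abcb1b, with 4 high-fat and 6 low-fat arrays (adjusted p = 0.83, limma).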

How the data were processed

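Per the labels, liver RNA in Cy5 was hybridised against a pooled reference in Cy3 on every array, without dye swap, so dye bias stays in each level and is shared by all groups. The deposited values are linear ratios with a mean of 1 on each array, read from the values; background correction and spot filters are not given in the sources used here. The log2 of each positive ratio was used, without a pseudocount, and other values counted as missing. Signal is unknown, so the number of arrays limits the precision. Each array was centred on its median over the probes tested. Of 2 pairs of identical columns each was counted once. Group means were fitted with limma 3.58.1 in R 4.3.3, with a term for each strain and diet level and for each week, and p-values were adjusted by Benjamini-Hochberg over all probes. A 95% interval is limma's. The code was tested on simulated data. For a gene with several probes, the one with values on most arrays was used. Named genes are those past the threshold in a comparison, otherwise the 3 with the smallest p, the highest and lowest of each family and the canalicular list; Abcg5 and Abcb11 values by week, and others from the looser filter, were chosen after their values were seen. The genes and lists were chosen with earlier results of these data known. Same-numbered high-fat and low-fat arrays had a median correlation of 0.04 in C57 and -0.02 in A/J, so numbers were not taken to pair arrays. All gene symbols matched RefSeq by Entrez identifier (GRCm38.p6).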

Additional observations from a re-analysis of the deposited data

Results flagged for a closer look

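The weekly means of each strain and diet group were checked for a value far from the others in 10 genes, which makes 40 groups of values, and 4 were found. Groups of the same gene share their weeks, so the 40 are not independent, and the number to be found by chance was not tested. Abcb4 in A/J high-fat livers stood at 2.08 at week 10, above the other weeks (-0.28 to 0.80). Abcb1b in C57 high-fat livers stood at -1.71 at week 11, below the others (-0.998 to -0.41), and C57 low-fat livers were at -1.68 in the same week. Atp6v1a in A/J high-fat livers stood at -1.21 at week 4, below the others (-0.47 to 0.13). Abcg5 in A/J low-fat livers stood at -0.93 at week 5, below the others (-0.06 to 0.39).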

How the results depend on the processing

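In C57, no diet difference of a member was called under any alternative run, nor any difference between the strains in the diet difference. In A/J, 1 was called on single arrays and 1 with the replicate block (Abca7 in both). Fits on single arrays take the array, not the weekly mean, as the unit, so their p-values may be too small. Strain differences on the low-fat diet were called for 1 gene with group medians and for 1 with the replicate block, and on the high-fat diet likewise for 1 and 1; leaving out 1 week gave 0 to 1 on either diet. Slopes were called for 16 genes, for 28 of 70 with the looser filter, 8 of 21 with the stricter filter, 25 on single arrays, 5 of 13 with all 10 weeks and unlike arrays kept, 1 with 1 mean per week, 0 within each of the 4 levels, and 11 (without week 1) to 19 (without week 5 or week 6) when 1 week was left out. No value past the threshold changed sign. No slope was fitted with a replicate block, which took the place of week in the fits over all weeks. In the tests within single weeks the replicate block called 0. The numbers do not pair the arrays by the labels, and 30 of 82 same-numbered pairs in C57 and 14 of 77 in A/J had a correlation over 0.1. Scaling arrays to 1 spread, 1 mean per week and slopes within levels were added after the data had been seen.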
